A study of Mus musculus with 2 samples.

Results

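Mir183, Mir96 and Mir182 are 3 microRNA genes that lie together on mouse chromosome 6 and are known as the microRNA cluster of sensory cells. They were taken by gene name from the deposited count tables, and the 3 genes were found among 1973 microRNA genes. All 3 carry the same Ensembl identifier and version in the tables and in the annotation used for names. The samples were 2 libraries of RNA shorter than 30 nucleotides from forebrain of B6NCrl mouse embryos at embryonic day 13.5, untreated as far as the labels say, with males and females pooled. The labels number them as biological replicates 1 and 2 of 1 group, with separate biosamples and 1 shared donor identifier. How embryos were divided between the pools is not stated, so the spread between the libraries may in part be technical. With 1 group there was no comparison between conditions, and the tests below compare the libraries with each other.

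MicroRNAs are cut from hairpin precursors, loaded into Argonaute proteins and pair with messenger RNAs mainly through the seed, bases 2 to 8 of the mature strand. In vertebrates the cluster is transcribed as a single primary RNA and is best known from photoreceptors of the retina, hair cells of the inner ear and neurons of the olfactory epithelium and of sensory ganglia. Mutations in the seed of miR-96 cause progressive hearing loss, and loss of the cluster disturbs the maturation and survival of sensory receptor cells.

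The mature sequences are printed first to show how far the 3 genes are alike in the seed. RefSeq (GRCm38.p6) held all 3 hairpins and 6 mature strands, which are given here 5′ to 3′ with the seed in capitals. The strands from the 5′ side of the hairpins, which are generally the guide strands of this cluster, come first.
mmu-miR-183-5p: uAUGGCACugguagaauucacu
mmu-miR-96-5p: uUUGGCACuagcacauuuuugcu
mmu-miR-182-5p: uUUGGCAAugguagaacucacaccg
mmu-miR-183-3p: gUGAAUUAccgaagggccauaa
mmu-miR-96-3p: cAAUCAUGuguagugccaauau
mmu-miR-182-3p: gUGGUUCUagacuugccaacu

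The seeds of the 5p strands were related but not identical. Positions are counted from 1 at the 5′ end of the mature strand. The seed of miR-96-5p and that of miR-182-5p differed only by C8A, and that of miR-183-5p differed from miR-96-5p only by A2U. The seeds of miR-183-5p and miR-182-5p differed by both substitutions, A2U and C8A. All 3 strands held UGGCA at bases 3 to 7, as did 5 of the 1738 mature sequences in the RefSeq table. The remaining strands with UGGCA at these bases were miR-1271-5p and miR-7022-5p. Over the whole strand the likeness had another order: miR-183-5p and miR-182-5p had the same base at 18 of 22 positions (81.8%), 12 of them among the 14 positions from base 9 on, and shared the stretch UGGUAGAA from base 9. miR-183-5p and miR-96-5p matched at 13 of 22 positions (59.1%), and miR-96-5p and miR-182-5p at 12 of 23 (52.2%). The 3p strands were less alike. Compared from base 1 without gaps, they had the same base at 31.8% to 33.3% of positions in the 3 pairs. miR-96-3p and miR-182-3p still shared the stretch UGCCAA from base 14.

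The hairpins show where these strands are cut out, and are printed 5′ to 3′ on the minus strand with both mature strands in capitals. Counts in the tables are for the whole gene, so reads of the 2 strands of a hairpin cannot be told apart.
Mir183: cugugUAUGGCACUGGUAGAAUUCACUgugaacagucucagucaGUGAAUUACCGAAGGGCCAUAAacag
Mir96: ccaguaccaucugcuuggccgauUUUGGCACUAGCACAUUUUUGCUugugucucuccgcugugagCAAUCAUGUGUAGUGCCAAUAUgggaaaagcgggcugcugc
Mir182: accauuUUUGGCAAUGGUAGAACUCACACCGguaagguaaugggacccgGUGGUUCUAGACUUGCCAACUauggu

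In GRCm38, the build also called mm10, Mir183 (ENSMUSG00000065619.2) lies on the minus strand of chromosome 6 at 30169668 to 30169737. Mir96 (ENSMUSG00000065586.1) lies at 30169446 to 30169551, only 116 bases downstream of Mir183. Mir182 (ENSMUSG00000076361.1) lies at 30165918 to 30165992, a further 3453 bases downstream, so that the cluster spans 3820 bases. No other GENCODE M21 gene overlaps the hairpins. In RefSeq all 3 lie within the long noncoding host gene Mirc35hg (30158640 to 30174125, minus strand), whose 5′ end is 4388 bases upstream of Mir183. Whether the hairpins fall in exons or introns of that gene was not analysed here. The flanking protein-coding genes in GENCODE are Nrf1, which encodes a transcription factor, and Ube2h, which encodes a ubiquitin-conjugating enzyme. The nearest base of Nrf1 is 12459 bases away and that of Ube2h 41551 bases away. The retinal noncoding RNA gene Rncr4 starts 3155 bases from Mir183 on the opposite strand and overlaps none of the 3 hairpins.

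**Figure D1:**
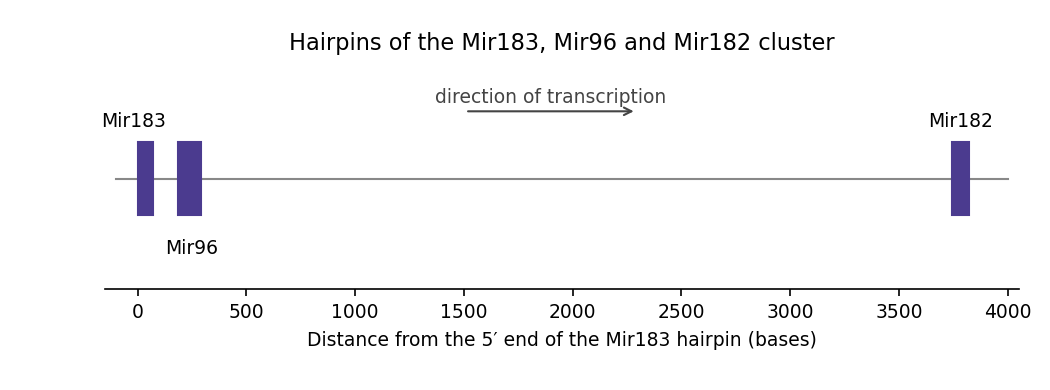
Map of the cluster drawn to scale, with the distance from the 5′ end of the Mir183 hairpin in bases on the horizontal axis. Boxes are the 3 hairpins in the direction of transcription: Mir183 and Mir96 are separated by 116 bases, and Mir182 stands 3453 bases further on.

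Replicate 1 held 4117752 counts on microRNA genes among 10631040 reads, and replicate 2 held 3908953 among 10452225. A CPM value is a count relative to 1000000 gene counts of the library, and a single read is worth 0.243 CPM in the first library and 0.256 CPM in the second. Of all reads, 40.6% and 43.9% stand in a row for reads that map to several places. For these 3 genes the longest exact stretch shared with another annotated microRNA transcript, in either orientation, was 14 bases for Mir183 and 11 bases for both Mir96 and Mir182. These are shorter than any of the 6 mature strands (21 to 25 nucleotides), and no second copy of a mature strand stood in the RefSeq table. The rest of the genome was not searched.

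All 3 genes were detected, which means 10 counts or more in both libraries. Mir182 had 754 counts in replicate 1 and 346 in replicate 2. These are 183.1 CPM (95% Wilson interval 170.5 to 196.7) and 88.5 CPM (79.7 to 98.3), a mean of 135.8 ± 66.9 CPM (SD, n = 2). Mir182 was the highest member in both libraries. It ranked 190th of the 1973 genes by mean CPM, close to the median of 137.4 CPM over the 377 detected genes.

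Mir183, which gives the cluster its usual name, had 586 and 293 counts, or 142.3 CPM (131.2 to 154.3) and 74.96 CPM (66.9 to 84.04). Its mean was 108.6 ± 47.6 CPM (SD, n = 2), and it ranked 201st. The intervals of the 2 libraries were far apart for this gene, as they were for Mir182.

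Mir96, the member tied to hearing loss, had 235 and 90 counts, or 57.1 CPM (50.2 to 64.8) and 23.02 CPM (18.7 to 28.3). Its mean was 40.05 ± 24.1 CPM (SD, n = 2), and it ranked 249th. With 90 counts the counting error alone was 10.5% of the value in replicate 2, against 3.64% to 6.52% for the members in replicate 1. The intervals cover counting error alone, because each uses the count of 1 library. How PCR copies of 1 molecule were handled was not examined here. If they were counted as separate reads, the intervals are too narrow.

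**Figure D2:**
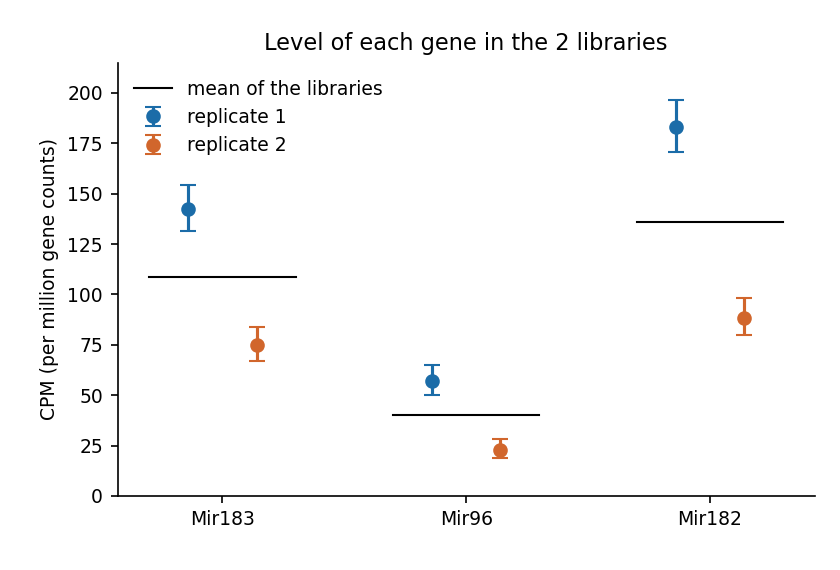
CPM of each gene on the vertical axis, with 1 point per library and 95% Wilson intervals as bars; black lines are the means of the 2 libraries. Each gene is higher in replicate 1 than in replicate 2, and in each library Mir182 stands above Mir183 and Mir183 above Mir96 (183.1, 142.3 and 57.1 CPM in replicate 1).

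The members kept 1 order in both libraries, and the mean ± SD of neighbours in the order overlapped. The mature strands are of nearly equal length, so CPM values were compared with no correction for length, and how evenly each sequence was captured was not measured. Mir182 exceeded Mir183 by 1.29-fold in replicate 1 (exact 95% interval 1.15 to 1.44) and by 1.18-fold in replicate 2 (1.01 to 1.38). In mean CPM these neighbours in the order differed by less than their SD. Mir183 exceeded Mir96 by 2.49-fold (2.14 to 2.91) and 3.26-fold (2.56 to 4.17). Mir182 exceeded Mir96 by 3.21-fold (2.77 to 3.73) and 3.84-fold (3.04 to 4.90). Within a library each of these intervals lay above 1, the lowest bound being that of Mir182 over Mir183 in replicate 2.

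The makeup of the cluster was much the same in the 2 libraries. Mir182 made up 47.9% of the 1575 cluster counts in replicate 1 (exact 95% interval 45.4 to 50.4) and 47.5% of the 729 in replicate 2 (43.8 to 51.2), or 47.7% ± 0.290 (SD, n = 2). Mir183 made up 37.2% (34.8 to 39.6) and 40.2% (36.6 to 43.9), or 38.7% ± 2.11. Mir96 made up 14.9% (13.2 to 16.8) and 12.3% (10.05 to 14.96), or 13.6% ± 1.82. For each gene the intervals of the 2 libraries overlapped.

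Summed, the cluster had 382.5 CPM (364.1 to 401.8) in replicate 1 and 186.5 CPM (173.4 to 200.5) in replicate 2, a mean of 284.5 ± 138.6 CPM. The sum was 2.05-fold higher in replicate 1 by CPM. After TMM normalization, a scaling on the bulk of the genes, the sum had a log2 ratio (replicate 2 over replicate 1) of -0.92 (exact 95% interval -1.05 to -0.80). In bulk tissue fewer cells of a type and less RNA per cell cannot be told apart.

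Gene by gene, the log2 ratio after TMM was -0.94 for Mir182 (exact 95% interval -1.12 to -0.75; two-sided exact binomial test, Benjamini-Hochberg adjusted p = 6.49e-24). It was -0.81 for Mir183 (-1.02 to -0.61; exact binomial adjusted p = 5.49e-15) and -1.19 for Mir96 (-1.56 to -0.84; exact binomial adjusted p = 1.85e-11). All 3 members were therefore lower in replicate 2 past this test, which compares the libraries and not conditions. Of the 475 genes tested, 183 (38.5%) passed in either direction, 97 (20.4%) of them lower in replicate 2 and 86 higher. With library totals in place of TMM the split was 141 lower and 54 higher, and with totals of all reads 162 and 35. The test was thus passed by a large share of all genes, since it covers counting error only. The median log2 ratio was 0.03 over all genes tested and -0.94 over the members. Mir96 also lay below a log2 ratio of -1, as did 14 of the tested genes past the test (2.95%). Among the 377 detected genes, counted from the lowest ratio, Mir96 was the 5th, Mir182 the 11th and Mir183 the 15th. The 4 genes below Mir96, named after their values were seen, were Mir451a of red blood cells, with 507 and 134 counts, the muscle gene Mir206 (43 and 13), Mir3060 (31 and 11) and Mir3067 (44 and 16).

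The edgeR exact test, which allows for spread beyond counting, used a common dispersion estimated from these same libraries (a biological coefficient of variation of 14.3%). The differences between the libraries over the 377 detected genes thus set its error term. A member not called here did not stand out from that spread after adjustment, which does not show equal levels. Its adjusted p was 0.117 for Mir96, 0.291 for Mir182 and 0.365 for Mir183, with unadjusted values of 0.000494, 0.00254 and 0.00922. It called 1 of the 475 genes (0.211%), Mir451a, and 26 (5.47%) had an unadjusted p under 0.05 and were lower in replicate 2, the 3 members among them.

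**Figure D3:**
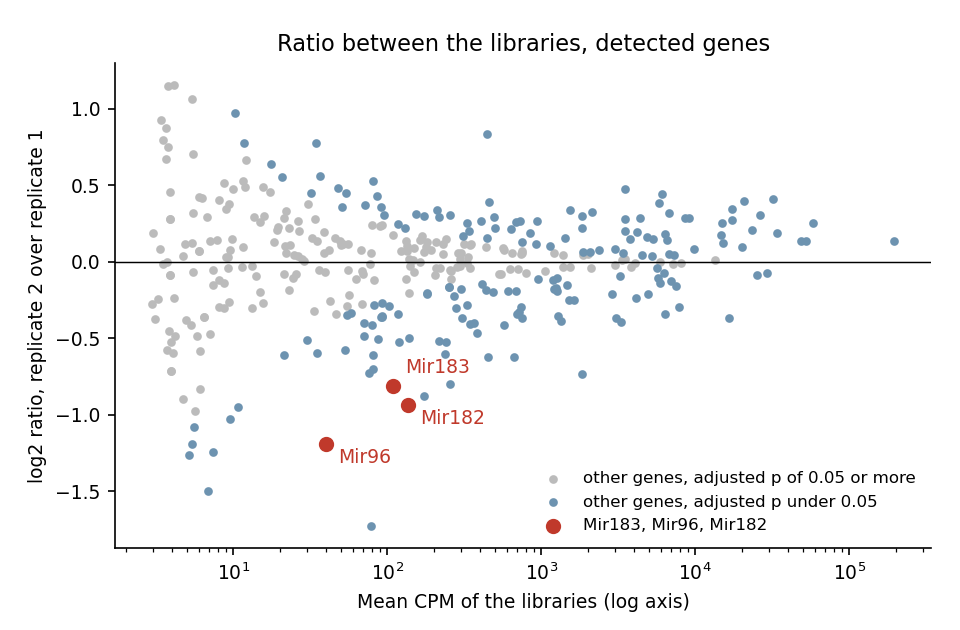
Each point is 1 of the 377 detected genes, with mean CPM on a log axis and the log2 ratio of replicate 2 over replicate 1 after TMM on the vertical axis; blue marks an exact binomial adjusted p under 0.05. Mir183 (-0.81), Mir182 (-0.94) and Mir96 (-1.19), in red, lie near the lower edge of the points at their level.

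Other clusters were used to show how the ratio of 1 cluster compares with its like. A cluster was a run of microRNA genes on 1 strand with gaps of at most 10 kb and at least 3 detected genes, and 15 were found. Mir182, Mir96 and Mir183 had a median log2 ratio of -0.94, the lowest of the 15, while the other medians ran from -0.49 to 0.36 (with library totals, -1.05 against -0.60 to 0.24). The highest of the 3 members (-0.81) lay below the lowest gene of 12 of the other clusters, the exceptions being the clusters with Mir341 (lowest gene -0.83) and Mir669h (-0.98). Next came the Mir302 cluster of pluripotent cells, where 4 of 4 detected genes were lower past the exact binomial test at a median of -0.49. With TMM every detected member passed as lower in these 2 of the 15 clusters only. Over all genes tested, 97 of 475 (20.4%) passed as lower. The 15 clusters did not hold the genes in introns of Htr2c. Of these, Mir448 (-0.88), Mir1298 (-0.73) and Mir1264 (-0.73) also passed as lower, at ratios below the Mir302 median. The difference between clusters was not tested.

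The levels of the members were close to each other. Mir182 was 3.39-fold above Mir96 in mean CPM, the second smallest gap between the highest and lowest detected gene in the 15 clusters. The gap ran from 2.97-fold to 4548-fold, with a median of 118.2-fold. In summed level the cluster ranked 13th of 15. A detected gene has 10 counts or more in both libraries, so the gap cannot be large where the highest gene is low. The smallest gap was in the cluster from Mir292 to Mir294, which had the lowest summed level (18.1 CPM). The largest was in a cluster with 31 detected genes. How far the rank of the gap follows from level and gene number was not tested.

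**Figure D4:**
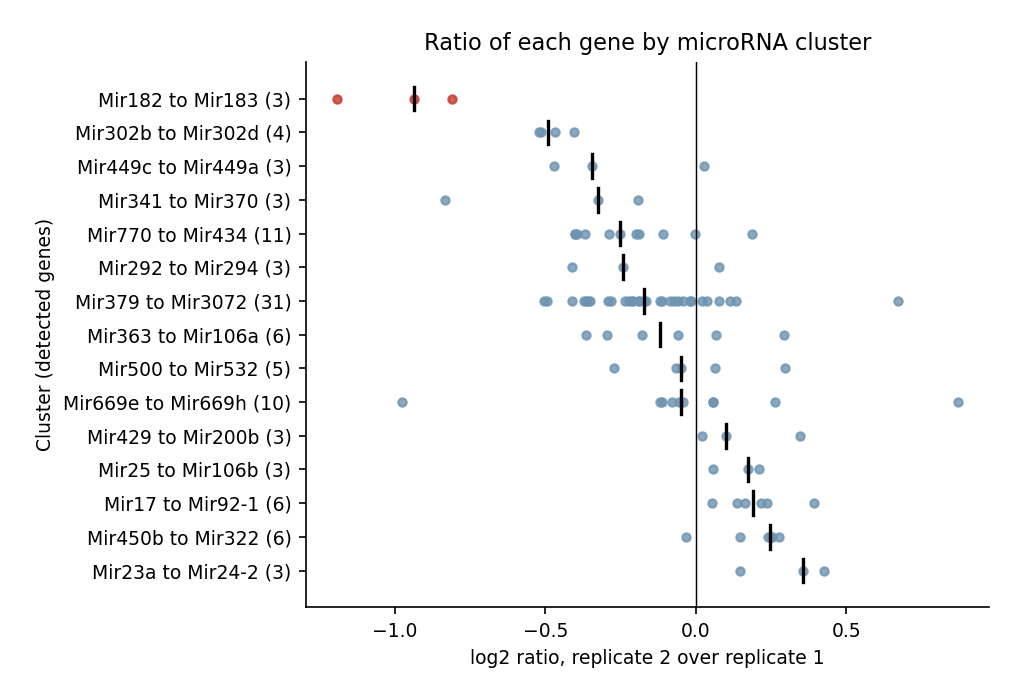
Each row is 1 of the 15 microRNA clusters with the number of detected genes in brackets, each point 1 gene and each black bar the cluster's median; the horizontal axis is the log2 ratio of replicate 2 over replicate 1 after TMM. The cluster from Mir182 to Mir183, in red, has the lowest median (-0.94), and the next of the 15 is the Mir302 cluster (-0.49). Genes in introns of Htr2c are not among the 15.

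Genes with a seed in common with a member were few. miR-1271-5p, whose sequence is printed because its seed is that of miR-96-5p, is the only other 5p match in the RefSeq table.
mmu-miR-1271-5p: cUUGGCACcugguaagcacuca
Its gene, listed as Gm24195 (ENSMUSG00000080454.2) on chromosome 13, had 0 counts in both libraries, which allows up to 0.729 CPM in replicate 1 and 0.767 CPM in replicate 2. The 3p strand of Mir96 shared its seed with miR-3475-5p, whose gene Mir3475 on chromosome X had 90 and 85 counts (21.9 and 21.7 CPM). No other mature sequence had the seed of miR-183-5p, miR-182-5p, miR-183-3p or miR-182-3p.

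The nearest measured microRNA genes on chromosome 6 stood at either end of the range of counts. On the side of lower coordinates, 177428 bases away, Gm23049 had 0 counts in both libraries. On the other side, 571561 bases away, Mir335, which lies in the imprinted gene Mest, had 51906 and 52685 CPM, 1.5% apart.

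The genes closest to the members in level over the 2 libraries, by distance in log2(CPM + 1), had log2 ratios nearer 0, from -0.80 to -0.29. Closest to Mir183 were Mir10b (144.7 and 93.1 CPM), Mir673 and Mir377, at distances of 0.31 to 0.40. Closest to Mir182 were Mir679 (167.3 and 109.7 CPM), Mir10b and Mir346, at 0.33 to 0.46. Closest to Mir96 were Mir216b (43.2 and 26.3 CPM), Mir181b-1 and Mir302c, at 0.44 to 0.63. Closest to the summed cluster were Mir214 of mesenchymal cells (334.2 and 177.3 CPM, distance 0.21), then Mir138-2, Mir302b, Mir375 and Mir770 (0.38 to 0.45). The distance uses the level in each library, so the log2 ratio is part of the choice. The ratios of these genes are therefore not a separate result. With 2 libraries such likeness is a description of level only.

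Several lists of microRNAs from other cell types had lower summed CPM in replicate 2, as the cluster did, and their part in the result was not tested. The choroid plexus, pigment epithelium and multiciliated list had 7 of 7 genes detected and summed to 9799 and 7000 CPM, 1.40-fold higher in replicate 1. Of its 7 tested genes, 4 were lower and 0 higher past the exact binomial test, with a median log2 ratio of -0.39. Over all genes tested, 97 of 475 (20.4%) passed as lower and 86 as higher. Its leading genes were Mir449a (7348 and 5355 CPM) of multiciliated cells and Mir204 (1569 and 1109 CPM) of choroid plexus and retinal pigment epithelium. The posterior list of genes within Hox clusters, with 4 of 6 detected, summed to 445.9 and 293.4 CPM, 1.52-fold higher in replicate 1. Of its 5 tested genes 2 were lower and 0 higher past the exact binomial test, with a median log2 ratio of -0.33. It was led by Mir10a (263.0 and 169.6 CPM) and Mir10b, and Mir196a-1 in it had 1 and 0 counts. Reads that map to several places are left out, so a low count of a gene with copies does not show absence.

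The pluripotency list, of which 10 of 11 names were matched and 6 detected, summed to 1209 and 816.3 CPM, or 1.48-fold. Mir292a was missed because it stood under its older name Mir292, with 15 and 11 counts. Of the 6 tested genes of the list, 4 were lower and 0 higher past the exact binomial test, against 20.4% lower over all genes tested. The median log2 ratio of the list was -0.44. Mir302a (456.1 and 304.9 CPM) and Mir302d (405.8 and 283.5 CPM) led it, while Mir290a had 0 counts in both libraries and Mir367 0 and 1. The erythroid list, with 2 of 4 names matched, summed to 149.6 and 76.2 CPM, or 1.96-fold. Its 2 matched genes went opposite ways past the exact binomial test: Mir451a was lower in replicate 2 (123.1 and 34.3 CPM) and its neighbour Mir144 higher (26.5 and 41.96 CPM). Mir486a was missed because it stood under its older name Mir486, with 40 and 39 counts and a log2 ratio of 0.15. By summed CPM the fold of the sensory cluster, 2.05, was above those of all 7 lists as matched. The choroid plexus list did not hold the genes in introns of Htr2c. Of these, Mir448 had a log2 ratio of -0.88, Mir1298 of -0.73 and Mir1264 of -0.73, against -0.81 for Mir183.

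The summed CPM of the epithelial, endocrine and neural lists differed by less between the libraries. The epithelial and olfactory list, which holds the Mir200 family of olfactory neurons and epithelia, summed to 1684 and 1597 CPM (1.05-fold). In it 7 of 7 genes were detected, and 1, Mir205 of stratified epithelia (65.8 and 40.7 CPM), passed as lower. Its median log2 ratio was 0.10 with TMM and turned to -0.01 with library totals and -0.06 with totals of all reads. Mir203 (1409 and 1343 CPM) and Mir429 (134.8 and 133.8 CPM) led it. Mir429 stood within 1 SD of Mir182 in mean CPM, yet its libraries were nearly equal. The pituitary and endocrine list, with 2 of 4 names matched, held Mir7b (1610 and 1452 CPM) and Mir375 (318.9 and 239.4 CPM). Mir375 is found in pituitary and pancreatic islet cells and passed as lower. Mir7a-1 and Mir7a-2 of this list stood under the older names Mir7-1 and Mir7-2 and were missed. They had 3296 and 2282 counts (log2 ratio -0.34) and 1533 and 1105 counts (-0.28), and both passed as lower. The neural list, with 8 of 10 measured genes detected, summed to 27236 and 23525 CPM (1.16-fold), led by Mir92b of progenitors (13897 and 12964 CPM) and Mir137 (8954 and 6750 CPM). Of its 9 tested genes 3 were lower and 0 higher past the exact binomial test, against 20.4% lower over all genes tested. These 3 were Mir137 at a log2 ratio of -0.30, Mir128-1 at -0.37 and Mir128-2 at -0.41. The median log2 ratio of the neural list was 0.03 with TMM and -0.09 with library totals. The neural sum was 71.2-fold above that of the sensory cluster in replicate 1 and 126.1-fold in replicate 2. The 3 genes of miR-124, the neuronal microRNA, had 3 to 20 counts a library. They encode the same mature strand, and reads that map to several places are not among these counts. The neural sum may therefore be too low.

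**Figure D5:**
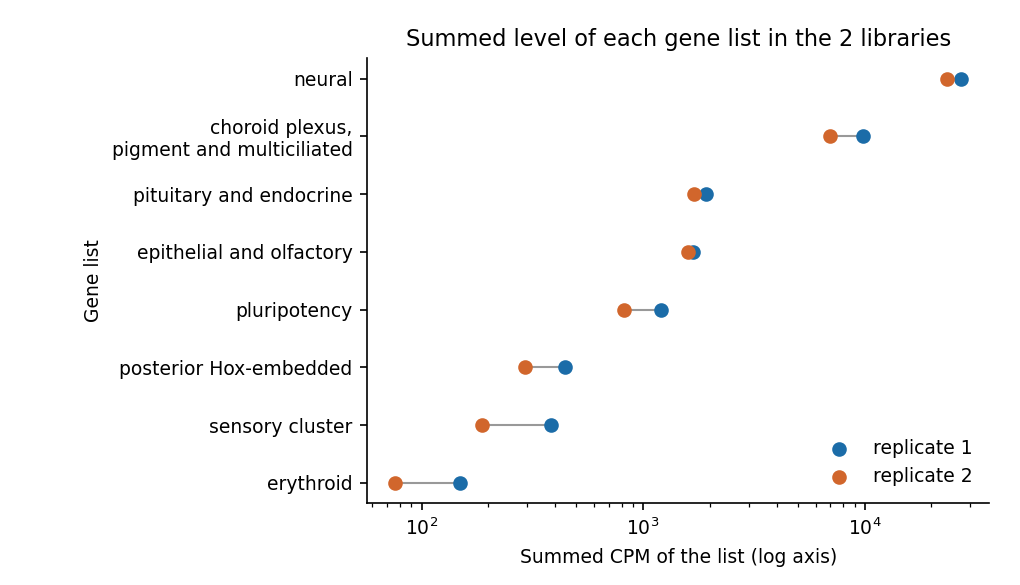
Summed CPM of each gene list on a log axis, with 1 point per library joined by a line. The sensory cluster moves from 382.5 CPM in replicate 1 to 186.5 CPM in replicate 2, while the epithelial and olfactory list stays between 1684 and 1597 CPM.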

How the data were processed

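Small RNA was sequenced from 2 forebrain libraries. The deposited tables hold whole-number counts of reads per microRNA gene, with a separate table for each library, for either strand, the gene's strand and the opposite strand. Build mm10 and GENCODE M4 are named in the accompanying read-me texts. Neither the aligner nor the counter is named in the sources used here. Counts on the gene's strand were used, and the 4 summary rows were left out of gene totals. Names came from GENCODE M21 on the same build, which matched 1894 of 1973 identifiers, and sequences from RefSeq GRCm38.p6.

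Replicate 2 was compared with replicate 1 by a two-sided exact binomial test with TMM library sizes (edgeR 4.0.16, R 4.3.3, prior count 0.5), adjusted by Benjamini-Hochberg over all 475 genes whose counts summed to 10 or more, and called at 0.05. A quasi-likelihood fit was not made, since a model of 1 library against 1 has no residual degrees of freedom. Single shares have Wilson intervals, ratios exact (Clopper-Pearson) intervals, from scipy 1.17.1. Alternatives were other scalings (DESeq2 1.42.0 size factors, library totals, all reads), strands, count minimums, prior counts, the edgeR exact test and each library alone. Named genes were the members, genes sharing a seed, chromosome neighbours, the genes nearest in level, and up to 2 leading genes of 7 lists. Other genes named, such as Mir205, Mir196a-1, Mir290a, Mir367, Mir128-1, Mir128-2, Mir206, Mir3060, Mir3067, Mir3074-1 and the genes of miR-124, were picked with their values in view. So were Mir7-1, Mir7-2, Mir292, Mir486, Mir448, Mir1298 and Mir1264. Lists were matched by exact gene name, so genes under an older name were left out of their sums and medians. The members and lists were chosen with earlier results of these data known.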

Additional observations from a re-analysis of the deposited data

Results flagged for a closer look

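The opposite-strand counts, which the comparisons above do not use, held reads at 2 of the 3 members, above the 3 counts that a count of 0 allows in each library. At Mir183 there were 4 opposite-strand reads in the first library and 12 in the second (mean 8). They made up 0.678% (95% Wilson interval 0.264 to 1.73) and 3.93% (2.26 to 6.75) of the reads on either strand, and these intervals did not overlap. At Mir182 there were 4 and 7, a mean of 5.5, or 0.528% (0.205 to 1.35) and 1.98% (0.964 to 4.04), and these intervals overlapped. At Mir96 there were 0 in both libraries, which allows up to 1.28% and 3.33% at its depth. These shares also depend on the own-strand counts, which were lower in replicate 2 for each member.

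Of 293 genes with at least 50 own-strand counts in each library, 265 had no opposite-strand read in either, and 7, with Mir183 and Mir182 among them, had more than 3 in both. By mean share Mir183 was 2nd of the 293 and Mir182 5th, and for both the share was higher in replicate 2 than in replicate 1. Mir3074-1, with 43 and 37 such reads (3.42% and 3.23%), was the highest. The tables give no read positions, and the source of these reads was not tested.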

How the results depend on the processing

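Apart from the 14 values of a single library, which with 2 libraries always lie within the SD, 41 of 51 alternative values kept their side of the threshold or stayed within the spread. Of the 31 log2 ratios among them 0 changed sign. Scaled to all reads, the levels were 41.6 for Mir183, 15.4 for Mir96, 52.01 for Mir182 and 108.9 for their sum, relative to 1000000 reads, and the log2 ratio of the sum was -1.09. With the edgeR exact test the ratios are by construction those of the main test (-0.81, -1.19 and -0.94 for Mir183, Mir96 and Mir182), but 0 members passed, and 1 gene was called in place of 183. With an absolute log2 ratio over 1 as well, 16 were called. Library totals moved all log2 ratios by -0.11 and totals of all reads by -0.16. Over the alternatives the log2 ratio ran from -0.97 to -0.77 for Mir183, from -1.36 to -1.18 for Mir96 and from -1.10 to -0.92 for Mir182, and the highest exact binomial adjusted p of a member was 1.05e-13, 1.93e-11 and 2.09e-23 in that order. A single library moved each level by over 1.5 times between its extremes: 74.96 to 142.3 CPM for Mir183, 23.02 to 57.1 for Mir96, 88.5 to 183.1 for Mir182 and 186.5 to 382.5 for the sum. No paired analysis was possible because the labels give 1 group only. Depth limits Mir96 most, at 90 counts in replicate 2.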
